A study of Rattus norvegicus with 241 samples.

Results

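Vascular smooth muscle cells (VSMC) were chosen from the single-cell tables of whole mammary glands of SD rats, an outbred strain. A cell was taken as VSMC when it held at least 2 unique molecular identifiers (UMIs, each standing for 1 captured transcript) over RGS5, PDGFRB and NOTCH3, at least 3 UMIs over MYH11 and CNN1, and at most 1 UMI over KRT14, KRT5 and PTPRC. PECAM1, which the rule also excludes, is not a row of these tables, so the rule was applied without it. An endothelial exclusion over CDH5, CLDN5 and VWF was run as an alternative only and did not choose the cells described here. The rule took 1449 of 103524 cells. These values chose the cells and are given as a description only. The 241 cells just inside the first minimum, with 2 UMIs over RGS5, PDGFRB and NOTCH3, held a median of 4232 UMIs in all, and the 272 just outside, with 1, held 3870. The 210 cells with 3 UMIs over MYH11 and CNN1 held a median of 6556 UMIs, and the 361 with 2 held 6166. The excluded genes kept out 146 cells that met both minimums.

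The rats were virgin females, 24 days of age at the first dose. Of the 9 rats, 6 received the TGFBR inhibitor LY2157299 (TGFBRi) by oral gavage at 75 mg/kg, 2 times a day for 10 days, and 3 received vehicle on the same schedule. Glands were taken on day 0 after the last dose, and each library held the cells of 1 rat after collagenase digestion. The comparison asks how blocking the TGFβ receptor kinase in the whole animal, not in VSMC alone, left the transcripts of the vessel wall muscle cell.

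VSMC wrap arteries, arterioles and veins and set their diameter. They contract when calcium lets myosin light chain kinase act on smooth muscle myosin, and they relax when nitric oxide raises cyclic GMP through soluble guanylate cyclase. Their contractile genes are switched on by serum response factor (SRF) with its partner myocardin (MYOCD), which bind the CArG box, and both Notch and TGFβ are known to promote the contractile state. In the mammary gland the myoepithelial cell shares the contractile apparatus but is a keratin-positive epithelial cell.

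Promoter stretches of 2 members are shown because they carry the element through which SRF acts. In the RefSeq promoters of the rat build GRCr8, a complete CArG box (a pair of C, 6 letters A or T, a pair of G, the same motif on both strands) lay within 250 bases before the start in 501 of 33469 genes, or 1.50%, and a box with at most 1 other letter in the core in 8.08%. In ACTA2 (chr1:241172563-241172652, minus strand) both boxes have 1 other letter in the core. In SRF (chr9:21923980-21924039, plus strand) both boxes are complete. The capitals mark the boxes.
ACTA2: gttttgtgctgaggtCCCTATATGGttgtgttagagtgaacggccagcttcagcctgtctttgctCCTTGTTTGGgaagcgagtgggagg
SRF: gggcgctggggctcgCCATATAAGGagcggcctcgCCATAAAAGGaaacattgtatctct
Of the 21 contractile genes with a promoter in the table, 0 held a complete box in this window and 2 held one with at most 1 other letter. Of 17 immediate early genes, 4 held a complete box, against the 1.50% of all promoters. A match of letters is a description and was not related to binding here.

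Markers that the rule did not use were checked first. ACTA2, smooth muscle actin, had a UMI in 97.9% of the 1449 cells, TAGLN, the actin-binding protein transgelin, in 96.8%, and the intermediate filament desmin (DES) in 88.96%. The shares in fibroblasts were 21.4%, 17.3% and 12.7%. Fibroblasts were chosen with at least 3 UMIs over PDGFRA, LUM and DPT and at most 1 over MYH11 and CNN1. That limit leaves out contractile cells, so part of these differences is built in. MYOCD was detected in 15.9% of VSMC and 0.193% of fibroblasts. The calcium-store protein CASQ2 was detected in 30.6% and 0.0645%, and RERGL, a small GTPase-like gene, in 16.2% and 0.00921%. The median VSMC held 6024 UMIs, and the median fibroblast 6722 to 9285 in the 9 rats, so the cells with the higher shares were not the deeper ones.

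RNA of other cell types was also present. The rule limits KRT5 and PTPRC, which had 3 and 32 UMIs in all VSMC together. Of basal markers that it does not limit, TP63 had 0 UMIs and KRT17 had 76, at most 37.3 CPM in a rat. Other basal markers were detected: the list of 15 summed to 274 to 561 CPM in vehicle and 378 to 506 CPM in TGFBRi rats, with 3 at 0 in all rats. A UMI over CDH5, CLDN5 and VWF, endothelial genes, was present in 10.7% of VSMC, and one over EPCAM, KRT8 and KRT18, epithelial genes, in 13.8%. DPT, a fibroblast matrix gene, reached a median of 785 CPM (a gene's UMIs scaled to the same total in the VSMC of every rat) over rats, against 1919 CPM in fibroblasts. Other fibroblast markers were further below their fibroblast level. LUM had 143 against 1536 CPM, PI16 8.71 against 143 CPM and PDGFRA 3.91 against 156 CPM. Whether DPT came from fibroblasts was not tested. Doublets were not called, and the part of RNA from other cells in the results below was not tested except by the alternatives named.

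**Figure D1:**
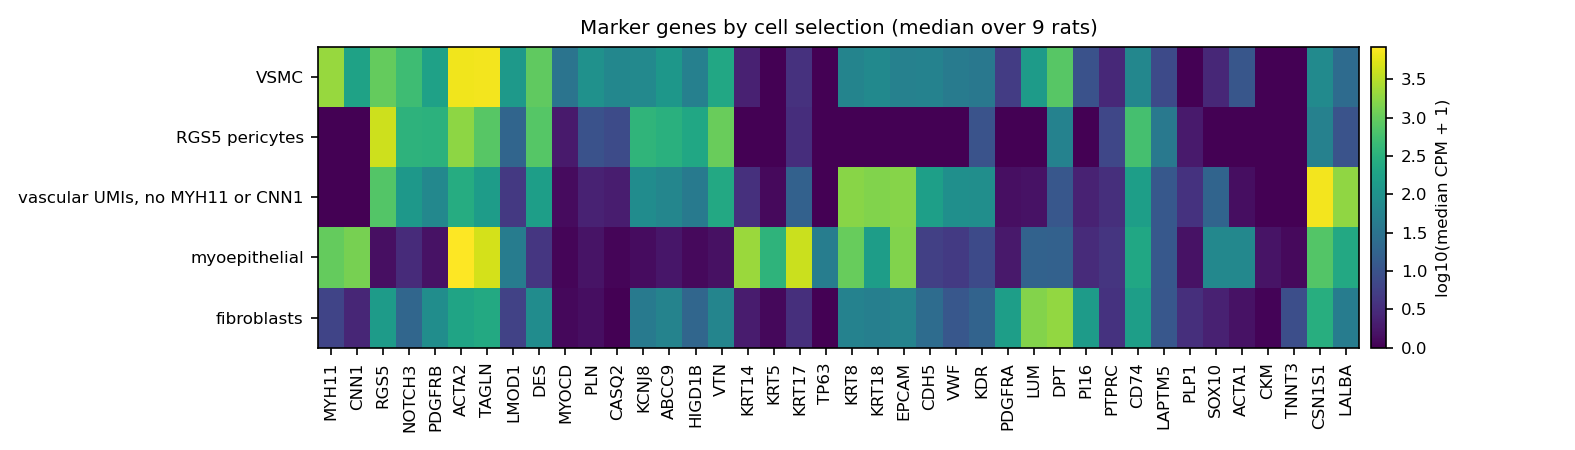
Marker genes in 5 selections of whole-gland cells. Colour gives log10 of the median CPM over the 9 rats plus 1. ACTA2 and TAGLN are high in VSMC and myoepithelial cells, KRT14 and KRT17 in myoepithelial cells, KCNJ8 and VTN in RGS5 pericytes, and DPT in fibroblasts and, at a lower level, VSMC. Genes used to choose the cells (MYH11, CNN1, RGS5, NOTCH3 and PDGFRB, and KRT14 and KRT5) are shown as a description.

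The nearest relatives in the gland were pericytes, the mural cells of capillaries. In 1165 cells with at least 2 UMIs of RGS5, no MYH11 or CNN1 and no epithelial or endothelial UMI (RGS5 pericytes), VTN had a median of 1062 CPM over rats, against 219.9 CPM in VSMC. The ATP-sensitive potassium channel pore KCNJ8 had 365 CPM against 69.5, and the cytokine PTN 1341 CPM against 230.6. In the other direction, the purinergic channel P2RX1 had 45.9 CPM in VSMC and none in pericytes, the potassium channel KCNK3 38.3 CPM against 0, and the sarcomere-linker gene PDLIM3 141 CPM against 1.45. These 6 genes come from a list that took only genes on the same side in 9 of 9 rats, so that count is not a result. Against 7504 myoepithelial cells, genes listed in the same way as higher in VSMC included DES (931 against 3.20 CPM) and the neuropeptide Y receptor NPY1R (263 against 0.206 CPM). The prostacyclin receptor PTGIR (144 against 0.243 CPM) was another. These differences come from cells that were chosen for different genes and carry no test.

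The VSMC of a rat held 43 to 400 cells and 382134 to 3065528 UMIs. In vehicle rats 1, 2 and 4 VSMC made up 0.603, 1.19 and 3.39% of all cells, and in the 6 TGFBRi rats the lowest share was 0.525, the median 1.30 and the highest 1.84%. The ranges overlapped, and vehicle rat 4 lay above all others. The means were 1.73% ± 1.47 (SD, n = 3) and 1.204% ± 0.562 (SD, n = 6), and the difference of -0.524 percentage points gave p = 0.548 in a two-sided exact permutation test. Without vehicle rat 4 the TGFBRi mean was higher, by 0.308 percentage points (exact permutation p = 0.429).

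Median UMIs per VSMC were 4629, 5979 and 5465 in vehicle rats and ran from 5593 through a median of 6752 to 8471 in TGFBRi rats. The means, 5357 ± 681 (SD, n = 3) and 6765 ± 1038 (SD, n = 6), gave p = 0.0714 in the two-sided exact permutation test over the 84 arrangements of the rats. A rule on UMI minimums takes more cells from deeper libraries, so this depth stands beside the share. For a further comparison, cells with fewer than 2000 UMIs were left out and the others thinned to 2000 UMIs each. The VSMC shares of these deeper cells were 0.739% ± 0.695 (SD, n = 3) and 0.592% ± 0.334 (SD, n = 6), with an exact permutation p of 0.690. Pairs of libraries shared 88 to 284 barcodes over all cells, and no VSMC barcode was shared.

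**Figure D2:**
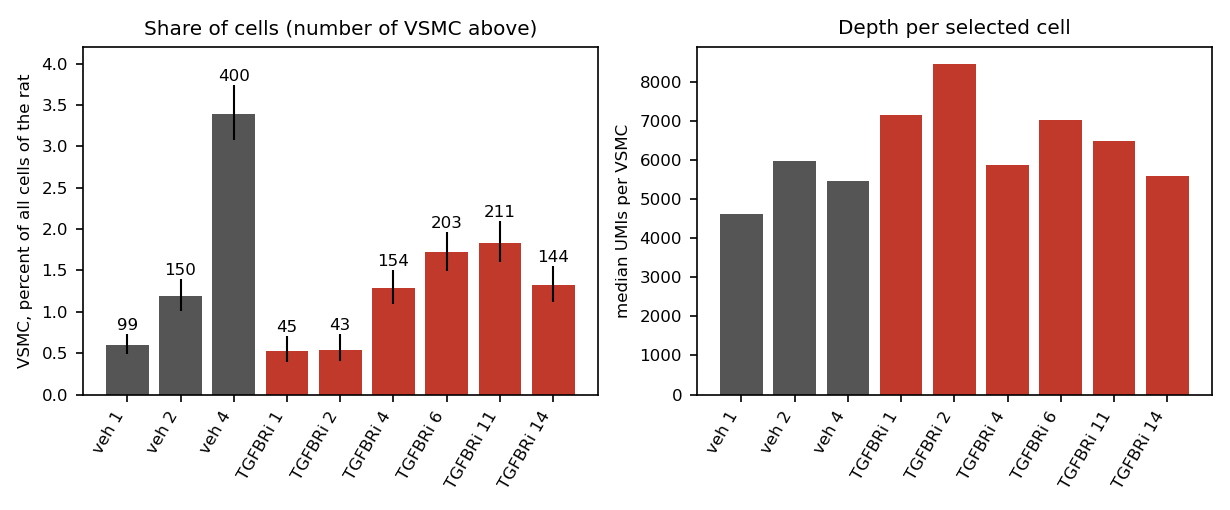
VSMC as a percent of all cells of a rat (left, bars with 95% Wilson intervals that cover counting error only, number of VSMC above) and median UMIs per VSMC (right), for 3 vehicle (grey) and 6 TGFBRi (red) rats. Vehicle rat 4, with 400 VSMC, stands above the other 8 rats in share but not in depth.

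UMIs were summed per rat and compared by edgeR's quasi-likelihood test, and a gene was called where its adjusted p (Benjamini-Hochberg) did not exceed 0.1. Of 12129 genes tested, 2164 were called (17.8%), 897 higher (7.4%) and 1267 lower (10.4%) after TGFBRi. The median log2 fold change (TGFBRi over vehicle) of all genes was 0.02. The values of the 2 groups of rats did not overlap for 15.6% of genes. Vehicle rat 2 weighed most on the calls: without it 1253 genes were called. Without the 2 smallest libraries, TGFBRi rats 1 and 2, the count was 1857. Lists of genes are read below against these shares, which include genes of low counts and were not matched to the lists by count. With edgeR's own filter on low counts (filterByExpr), 2381 of 8324 genes were called, a larger share. A list's share above 17.8% is therefore not by itself read as a result about the list.

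Part of the contractile apparatus was higher after TGFBRi. Of 28 contractile genes tested outside the rule, 6 were called higher and 2 lower, 28.6% against 17.8% of all genes, with a median log2 fold change of 0.34. With the filter on low counts 2381 of 8324 genes in all were called, so the share of this list is not read as raised. Without vehicle rat 2, 2 of the list were higher and 1 lower, where 1253 of 11991 genes in all were called. Over all fits that left out 1 rat the number higher in the list ran from 2 to 9. The rule's own contractile genes chose the cells and are not read.

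ACTA2, the actin of the thin filament, stood at 4800, 4162 and 2574 CPM in vehicle rats and at 6691 to 9698 CPM with a median of 7064 in TGFBRi rats. All TGFBRi rats lay above all vehicle rats, with a rise of 1.86 times (log2 fold change 0.89 ± 0.17 (SE), edgeR adjusted p = 0.00326), and the call held in every fit that left out 1 rat. TPM1, a tropomyosin that lies along the same filament, stood at 1890, 1610 and 1950 CPM against 2515 to 3650 CPM, again without overlap, and rose by 1.47 times (edgeR adjusted p = 0.0185). LMOD1, which nucleates actin filaments in smooth muscle, stood at 116, 43.6 and 54.5 CPM against 83.7 to 229 CPM (log2 fold change 0.93 ± 0.31). SMTN, smoothelin, a marker of contractile smooth muscle, stood at 37.3, 36.4 and 50.2 CPM against 41.9 to 97.9 CPM (0.63 ± 0.23). The focal adhesion protein VCL (0.40 ± 0.15) and the actin-binding protein NEXN (0.64 ± 0.18) were also called higher. For LMOD1, SMTN and VCL the call was lost in 6 of 9 fits that left out 1 rat, without vehicle rat 2 among them, while NEXN lost it without vehicle rat 2. A stricter choice of cells took at least 4 and 6 UMIs in place of 2 and 3, and no UMI of the excluded genes. It left 15 and 19 cells in TGFBRi rats 1 and 2. Under it LMOD1, SMTN, VCL, NEXN and CRYAB were not called, which left 2 genes higher and 1 lower of 28. With this choice 1049 of 10801 genes in all were called.

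The other abundant contractile genes did not pass. TAGLN stood at 6229, 6002 and 7011 CPM in vehicle rats and 6713 to 9438 CPM in TGFBRi rats (log2 fold change 0.14 ± 0.14). The regulatory light chain MYL9 had 0.13 ± 0.14, TPM2 0.21 ± 0.17 and DES 0.29 ± 0.16. The light chain kinase MYLK had 0.50 ± 0.20 with an edgeR adjusted p of 0.117. The 2 contractile genes called lower were PDLIM7, a scaffold on actin, at 263, 251 and 250 CPM against 160 to 267 CPM (log2 fold change -0.50 ± 0.15), and the small chaperone CRYAB, at 970, 791 and 1512 CPM against 377 to 869 CPM (log2 fold change -0.87 ± 0.28). CRYAB lost its call in 5 of 9 fits that left out 1 rat, and PDLIM7 without vehicle rat 2.

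Transcription factors of the muscle programme were among the called genes. Of 27 regulators and Notch pathway genes tested, 6 were higher and 1 lower (25.9%), and the median log2 fold change was -0.03. Without vehicle rat 2, 3 were called higher. MYOCD stood at 16.7, 15.8 and 8.81 CPM in vehicle rats and at 24.9 to 63.3 CPM with a median of 34.7 in TGFBRi rats. The groups did not overlap, and MYOCD rose by 2.67 times (log2 fold change 1.42 ± 0.30, edgeR adjusted p = 0.00552). It kept the call without any single rat and lost it under the stricter choice of cells. SRF, its partner, whose promoter boxes are printed above, stood at 42.5, 29.3 and 37.5 CPM against 52.7 to 73.5 CPM (0.65 ± 0.18, edgeR adjusted p = 0.0295). MEF2C, a muscle factor that binds A and T rich sites, stood at 19.3, 31.7 and 36.9 CPM against 52.3 to 97.9 CPM (1.15 ± 0.25, edgeR adjusted p = 0.00615).

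KLF4, a zinc finger factor known to restrain the contractile programme, was also higher, at 197, 111 and 255 CPM against 280 to 448 CPM (log2 fold change 0.71 ± 0.24). EBF1 (0.79 ± 0.19) and the nuclear receptor partner NRIP2 (1.03 ± 0.34) rose as well. HEY2, a Notch target that represses transcription, was the list's only gene called lower, at 66.9, 103.8 and 60.02 CPM against 15.7 to 67.7 CPM (-1.17 ± 0.37). MRTFA, the other SRF partner, did not pass (0.29 ± 0.27). SRF lost its call without vehicle rat 2, NRIP2 in 3 of 9 fits that left out 1 rat, KLF4 in 4 and HEY2 in 5. SRF, KLF4 and NRIP2 also lost it when VSMC with any UMI of 8 genes of other cell types were left out, as did SMTN among the contractile genes.

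**Figure D3:**
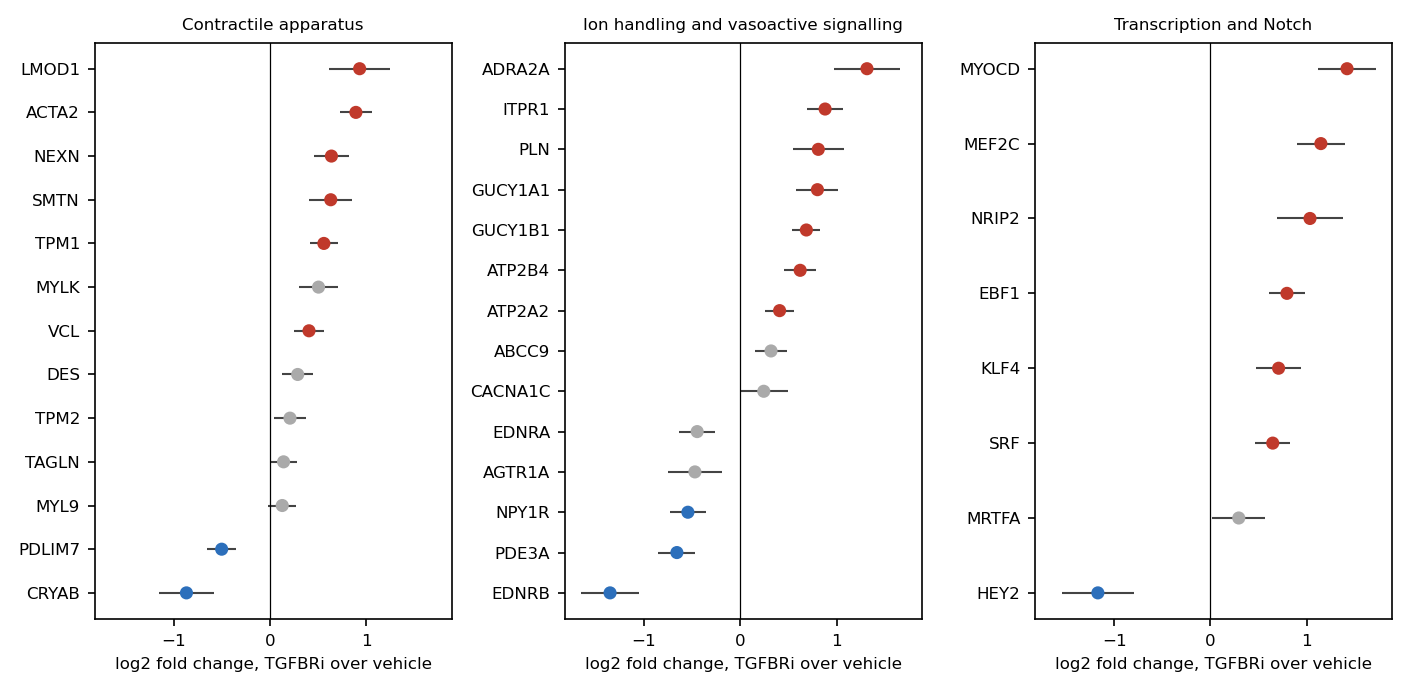
Log2 fold change of VSMC in TGFBRi over vehicle rats, with its SE, for contractile genes (left), ion handling and vasoactive genes (middle) and regulators (right). Red points were called higher, blue lower, and grey points did not pass an adjusted p of 0.1. ACTA2 at 0.89 and MYOCD at 1.42 lie to the right, EDNRB at -1.35 and HEY2 at -1.17 to the left, and TAGLN at 0.14 is grey.

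Genes that handle calcium and vasoactive signals were called in both directions. Of 39 tested, 7 were higher and 3 lower (25.6%), and the median log2 fold change was 0.24. Without vehicle rat 2, 4 were called higher. ITPR1, the channel through which calcium leaves the store, stood at 72.1, 72.9 and 53.5 CPM against 88.97 to 154 CPM and rose by 1.84 times (log2 fold change 0.88 ± 0.19, edgeR adjusted p = 0.00552). The store pump ATP2A2 (0.41 ± 0.15), the plasma membrane pump ATP2B4 (0.62 ± 0.16) and phospholamban (PLN), which restrains the store pump (0.81 ± 0.26), were higher too. ATP2A2 lost its call in 8 of 9 fits that left out 1 rat and PLN in 3. PLN was at 36.6 CPM in TGFBRi rat 1, below the 3 vehicle rats (56.6, 41.2 and 53.5 CPM), and at 95.01 to 125 CPM in the other 5.

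Both subunits of soluble guanylate cyclase, the nitric oxide receptor, rose. GUCY1A1 stood at 87.5, 50.7 and 76.7 CPM against 102.3 to 216 CPM (log2 fold change 0.80 ± 0.22, edgeR adjusted p = 0.0241). GUCY1B1 stood at 78.5, 73.7 and 72.4 CPM against 119 to 149 CPM (0.69 ± 0.15, edgeR adjusted p = 0.00579). No TGFBRi rat overlapped a vehicle rat in either gene, but neither call held under the stricter choice of cells, and that of GUCY1A1 was lost without vehicle rat 2. The phosphodiesterase PDE3A, which breaks down cyclic AMP, was lower, at 290, 313 and 192 CPM against 104.7 to 227 CPM (-0.66 ± 0.19), and lost its call without vehicle rat 1 or 2.

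Among receptors, the endothelin receptor EDNRB was lower, at 526, 475 and 153 CPM in vehicle rats and 129 to 202 CPM in TGFBRi rats (log2 fold change -1.35 ± 0.30, edgeR adjusted p = 0.0171). Vehicle rat 4 lay inside the range of the TGFBRi rats, so the groups overlapped. The other endothelin receptor, EDNRA, did not pass (-0.45 ± 0.18, edgeR adjusted p = 0.124), nor did the angiotensin receptor AGTR1A (-0.47 ± 0.28). The adrenergic receptor ADRA2A rose from 9.01, 3.17 and 9.79 CPM to 13.8 to 28.8 CPM (1.32 ± 0.35), a call lost without cells that held UMIs of other types. NPY1R was called lower (-0.54 ± 0.18), at 235, 474 and 280 CPM against 227 to 278 CPM. Only vehicle rat 2 stood well above the TGFBRi rats, and the call was lost without it and without TGFBRi rat 4 or 14. The calcium channel CACNA1C (0.24 ± 0.25) and the channel subunit ABCC9 (0.32 ± 0.16) did not pass.

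The pathway that the drug blocks was read next. Of 31 TGFβ ligands, receptors and SMADs tested, 3 were called higher and 1 lower (12.9%, against 17.8% of all genes), with a median of 0.08. Among ligands, TGFB3 stood at 32.2, 19.8 and 29.03 CPM against 52.3 to 94.6 CPM, without overlap, a rise of 2.57 times (log2 fold change 1.36 ± 0.24, edgeR adjusted p = 0.00167). INHBA, which forms activin, stood at 200, 381 and 127 CPM against 46.3 to 95.9 CPM, 3.65 times lower (-1.87 ± 0.31, edgeR adjusted p = 0.00445), a call that the stricter choice of cells also lost. TGFB2 had 0.86 ± 0.35 and did not pass (edgeR adjusted p = 0.132), and TGFB1 had -0.05 ± 0.23, with a sign that turned in several alternatives.

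Of the receptors, the co-receptor TGFBR3 was higher (log2 fold change 0.63 ± 0.22) but lost its call in 6 of 9 fits that left out 1 rat and without cells that held UMIs of other types. The signalling receptors TGFBR1 (-0.29 ± 0.28) and TGFBR2 (0.40 ± 0.22) did not pass. SMAD1, which carries signals of the BMP branch, rose from 39.9, 47.5 and 36.9 CPM to 58.3 to 92.1 CPM (0.68 ± 0.20), a call lost under the stricter choice of cells and with sums thinned to the smallest rat. The inhibitor SMAD7, itself a target of the pathway, had -0.18 ± 0.18.

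Classic targets and feedback genes were called at 11.1%, below the 17.8% of all genes: 2 of 36 tested were higher and 2 lower, and the median log2 fold change was -0.10. KLF10, an early TGFβ-induced factor, stood at 41.2, 34.1 and 46.3 CPM against 10.47 to 35.6 CPM (-0.78 ± 0.25). PMEPA1, a feedback inhibitor, stood at 86.2, 36.4 and 33.3 CPM against 23.1 to 46.9 CPM (-0.71 ± 0.26), where vehicle rat 1 was high and the others overlapped. TIMP3, an inhibitor of matrix proteases, rose from 435, 298 and 401 CPM to 576 to 773 CPM (0.63 ± 0.16, edgeR adjusted p = 0.0143). The kinase NUAK1 was higher as well (0.94 ± 0.34). CCN2 (-0.67 ± 0.33) and ID3 (-0.72 ± 0.26) did not pass. PMEPA1 lost its call in 6 of 9 fits that left out 1 rat, NUAK1 in 7 and KLF10 without vehicle rat 4. All of these 3 lost it without cells that held UMIs of other types.

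Of 67 genes of the vessel wall matrix, 6 were called higher and 1 lower (10.4%), and the median log2 fold change was 0.05. COL8A1, a short-chain collagen made by vessel wall cells, stood at 9.01, 6.34 and 13.4 CPM against 22.4 to 39.2 CPM (1.54 ± 0.28, edgeR adjusted p = 0.00229). The protease ADAMTS1 stood at 426, 505 and 541 CPM against 752 to 1108 CPM (0.73 ± 0.16, edgeR adjusted p = 0.00819). Neither gene overlapped between groups. The elastic fibre proteins EFEMP2 (0.49 ± 0.17) and EMILIN1 (0.71 ± 0.23) and the collagen COL16A1 (0.62 ± 0.23) were also called higher. MGP, an inhibitor of vessel wall calcification, was lower, at 1953, 3055 and 2434 CPM against 1573 to 2140 CPM (-0.62 ± 0.15, edgeR adjusted p = 0.0123). The basement membrane collagen COL4A1 (-0.36 ± 0.14) and FBN1, which forms microfibrils (0.39 ± 0.18), did not pass. MGP lost its call only without vehicle rat 2, while COL16A1 lost it in 6 of 9 such fits, EFEMP2 in 5 and EMILIN1 in 3. EMILIN1 also lost it without cells that held UMIs of other types. The number of matrix genes called higher ran from 3, without TGFBRi rat 4 or 6, to 9, without vehicle rat 4.

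**Figure D4:**
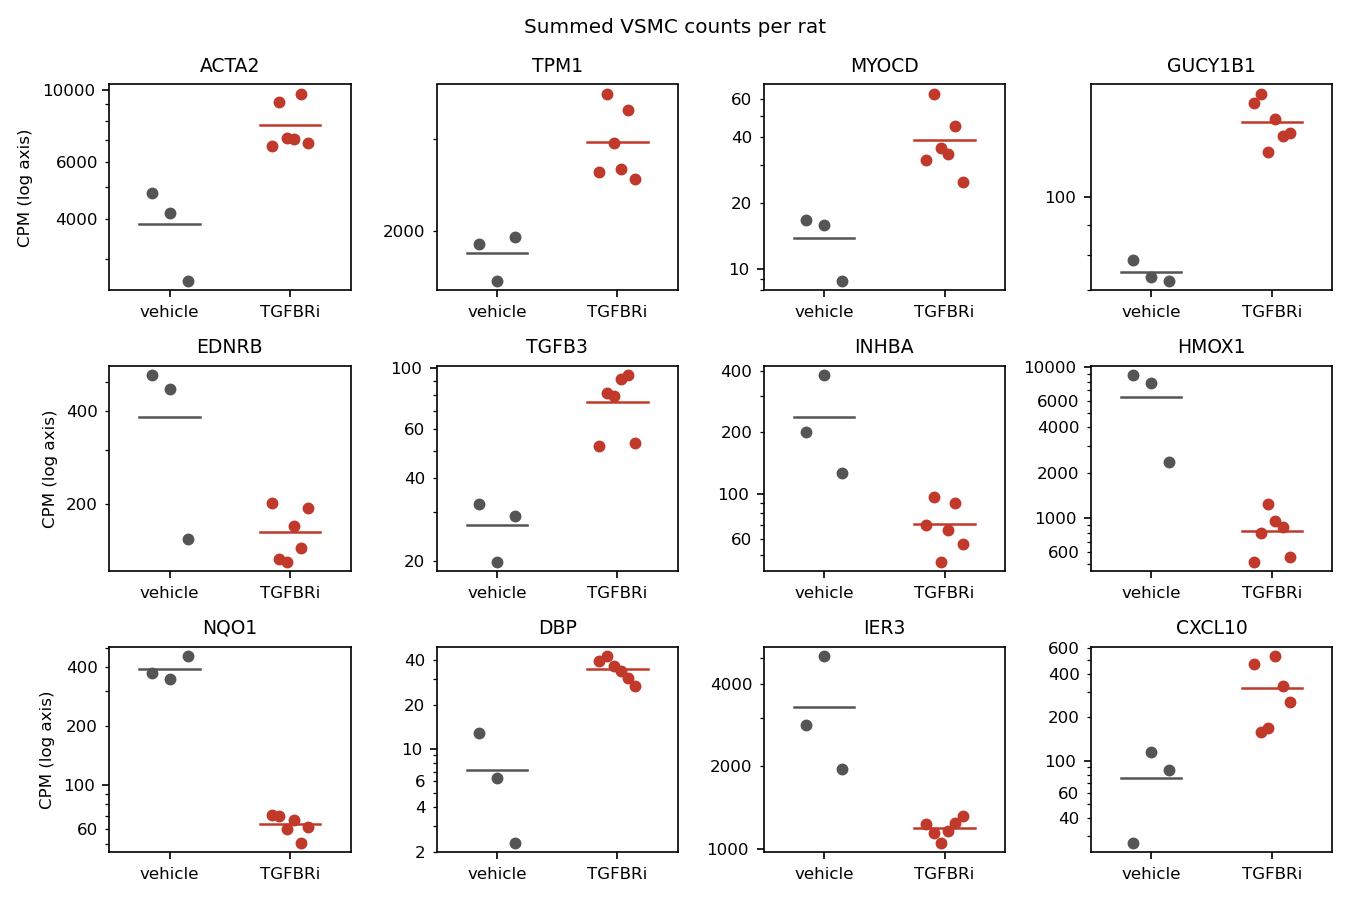
CPM of 12 genes in summed VSMC of each rat (log axis), with points for rats and lines for means, in 3 vehicle (grey) and 6 TGFBRi (red) rats. ACTA2, TPM1, MYOCD, GUCY1B1, TGFB3, DBP and CXCL10 lie higher and HMOX1, NQO1, INHBA and IER3 lower in every TGFBRi rat, while EDNRB of vehicle rat 4 (153 CPM) lies among the TGFBRi rats.

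The largest changes, taken over all genes with non-overlapping groups and a mean of at least 20 UMIs per rat in the higher group, lay mostly outside these lists. On the lower side stood genes of the response to oxidants and electrophiles. NQO1, a quinone reductase, stood at 371, 347 and 454 CPM in vehicle rats and at 50.7 to 70.7 CPM in TGFBRi rats, 6.94 times lower (log2 fold change -2.80 ± 0.15, edgeR adjusted p = 5.86e-09). HMOX1, heme oxygenase, stood at 8874, 7851 and 2357 CPM against 513 to 1251 CPM, 8.27 times lower (-3.05 ± 0.41, edgeR adjusted p = 0.00398). SLC7A11, the cystine transporter, stood at 99.1, 86.3 and 26.1 CPM against 3.56 to 16.0 CPM (-2.68 ± 0.43). The aldo-keto reductase AKR1B8 stood at 575, 893 and 146 CPM against 12.2 to 102.1 CPM (-4.20 ± 0.68). These genes were named by the size of their change and not tested as a group.

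The other 8 largest falls held the secreted factors EREG, a ligand of the EGF receptor, and CXCL6, a chemokine, with TRIM80, INMT, DDIT4L, GPR183, PTPRN and BCL2A1. EREG stood at 3.86, 17.4 and 12.4 CPM in vehicle rats and at 0 in 4 of 6 TGFBRi rats, with 2.04 CPM the highest, so its fitted fold rests on few UMIs. CXCL6 lost its call in 3 of 9 fits that left out 1 rat and INMT in 2. PTPRN, of secretory granules, stood at 116, 135 and 140 CPM against 7.85 to 43.2 CPM (log2 fold change -2.52 ± 0.27, edgeR adjusted p = 0.000133). BCL2A1, a survival gene of leukocytes and other cells, stood at 65.6, 19.8 and 11.7 CPM against 0.798 to 8.14 CPM, and turned in sign without cells that held UMIs of other types.

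On the higher side the clock output factor DBP stood at 12.9, 6.34 and 2.28 CPM in vehicle rats and at 26.7 to 42.9 CPM in TGFBRi rats, a rise of 5.40 times (log2 fold change 2.43 ± 0.37, edgeR adjusted p = 0.000680). TCF7L1, a Wnt pathway factor, stood at 29.6, 18.2 and 20.6 CPM against 72.1 to 85.4 CPM (1.70 ± 0.19, edgeR adjusted p = 4.82e-05). The Ets factor FLI1 (2.07 ± 0.38), the cofactor LDB2 (1.68 ± 0.26) and ASAP1, which acts on Arf GTPases (1.99 ± 0.32), rose as well. The remaining 7 were FAM189A2, RT1-T24-4, a class I histocompatibility gene with near relatives, CXCL10, MYBPC1, TRIL, TMEM88 and IGTP, with log2 fold changes from 1.67 to 2.16. RT1-T24-4, CXCL10 and IGTP lost their calls under the stricter choice of cells, and FAM189A2 and CXCL10 with sums thinned to the smallest rat. FLI1, LDB2 and TMEM88 were highest in TGFBRi rats 1 and 14, where the summed endothelial markers were also highest (934 and 1597 CPM). These genes kept their calls with the endothelial exclusion, and the part of endothelial RNA in them was not tested. Clock genes follow the time of day, and the hour at which each rat was taken is not given in the sources used here.

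Among genes chosen after their values were seen, HOPX, a homeodomain cofactor, stood at 239, 216 and 288 CPM against 537 to 705 CPM (log2 fold change 1.11 ± 0.16). F3, tissue factor, which starts coagulation, stood at 165, 143 and 68.8 CPM against 28.8 to 57.1 CPM (-1.74 ± 0.24).

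Immediate early genes, which rise within minutes of a stimulus and also on dissociation, were called at 37.5%: 6 of 24 tested were higher and 3 lower, and the median log2 fold change was 0.22. JUNB stood at 1376, 1626 and 1524 CPM against 2424 to 3327 CPM (0.82 ± 0.14, edgeR adjusted p = 0.00174). FOSB (0.70 ± 0.19), NR4A3 (0.59 ± 0.16), BTG2 (0.79 ± 0.22), CSRNP1 (0.79 ± 0.21) and SOCS3 (0.95 ± 0.21) rose with it. FOSL1 (-1.19 ± 0.23), IER3 (-1.60 ± 0.21) and MAFF (-0.43 ± 0.14) moved the other way, IER3 from 2835, 5080 and 1952 CPM to 1048 to 1314 CPM. MAFF lost its call in 3 of 9 fits that left out 1 rat, BTG2 in 2 and CSRNP1 without vehicle rat 2. Under the stricter choice of cells 3 immediate early genes were higher and 2 lower, and FOSB, BTG2, SOCS3 and MAFF were not called. EGR1 did not pass (0.45 ± 0.21). Of 12 heat shock genes, 3 were lower (HSPE1, HSPD1 and HSPA5) and none higher, with a median of -0.45. Without vehicle rat 4, 2 heat shock genes were called higher and 0 lower by edgeR, and without TGFBRi rats 1, 11 or 14 none was called. Whether cells were fresh or thawed is not given per rat in the sources used here, and its part in these changes was not tested.

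Chemokines, cytokines and interferon response genes were called at 38.5%, 7 of 26 higher and 3 lower, and the median log2 fold change was 0.29. Without vehicle rat 1, 3 were called higher. Under the stricter choice of cells 1 was higher and 1 lower. The interferon response genes IFIT2, IFIT3, MX2 and IRF7 were called higher, IFIT3 from 38.6, 32.5 and 24.1 CPM to 60.5 to 149 CPM (1.51 ± 0.26, edgeR adjusted p = 0.00203). None of the 4 was called under the stricter choice of cells. MX2 was at 18.3 CPM in TGFBRi rat 1, below the 3 vehicle rats, and kept its call in 3 of 9 fits that left out 1 rat, and IFIT2 lost its call without vehicle rat 1. CXCL10, a chemokine that interferon induces, stood at 27.0, 115 and 85.8 CPM against 157 to 532 CPM (1.87 ± 0.60, edgeR adjusted p = 0.0901) and kept its call in 2 of 9 fits that left out 1 rat. IL34, a ligand of the macrophage growth factor receptor, rose from 39.9, 39.6 and 51.2 CPM to 104.1 to 147 CPM (1.36 ± 0.18, edgeR adjusted p = 0.000295). CXCL1 was lower, at 7103, 12600 and 3093 CPM against 2256 to 4607 CPM (-1.27 ± 0.39), as were CX3CL1 (-1.41 ± 0.34) and LIF (-2.83 ± 0.81). CXCL1 kept its call in 2 of 9 fits that left out 1 rat and LIF in 3, and LIF of TGFBRi rat 1 (39.25 CPM) lay above vehicle rats 1 and 4.

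Without VSMC that held any UMI of 8 genes of other types, which left out 615 of 1449 cells, IFIT2, IFIT3, MX2, IRF7, CX3CL1 and RT1-T24-4 were no longer called, while IL34 and CXCL10 were. The summed leukocyte markers stood at 1015, 312 and 176 CPM in vehicle rats and at 81.1 to 209 CPM in TGFBRi rats, and 2 of 12 tested (CD74 and LAPTM5) were called lower.

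Growth factor genes were called at 20.6%, 3 of 34 higher and 4 lower (EREG among them), with a median log2 fold change of 0.06. ANGPT1, the angiopoietin that mural cells send to the endothelium, rose from 7.72, 3.17 and 6.20 CPM to 14.3 to 23.8 CPM (1.64 ± 0.32, edgeR adjusted p = 0.00297), a call lost under the stricter choice of cells. With that choice 1 growth factor gene was higher and 1 lower. ANGPT2, its counterpart at the same receptor, rose from 91.4, 61.8 and 64.9 CPM to 110 to 173 CPM (0.84 ± 0.18, edgeR adjusted p = 0.00599). PDGFC was higher (1.23 ± 0.35). VEGFA (-0.58 ± 0.18) and the receptor FGFR1 (-1.12 ± 0.29) were lower, as was the progesterone receptor PGR, which rests on few UMIs (at most 6.43 CPM in any rat). In fits that left out 1 rat PGR kept its call in 2 of 9, not being tested in 2 of the others, and VEGFA lost its call in 3, PDGFC in 2 and FGFR1 in 1. Of 25 S phase genes 1 was called lower, RPA2 (-1.30 ± 0.23), and 0 of 25 G2/M genes were called by edgeR.

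Markers of other cells had low medians for leukocyte (-0.90), luminal (-0.72) and Schwann cell (-1.02) genes. The first 2 turned in sign under the stricter choice of cells, to 0.15 and 0.67, and without cells that held UMIs of other types, to 0.45 and 0.24. The latter choice leaves out cells by UMIs of EPCAM, KRT8, KRT18 and CD74, themselves luminal or leukocyte genes. Its turn in sign is therefore partly set by the choice. In the pericyte list 2 of 19 were higher (0 without vehicle rat 2, 5 without vehicle rat 4), HIGD1B and ANPEP, and 1 lower, GJA4, the connexin of arterial cells, at 589, 753 and 480 CPM against 280 to 445 CPM (log2 fold change -0.95 ± 0.17). Of 11 basal and 13 endothelial genes none was called by edgeR. Summed endothelial markers stood at 651 to 889 CPM in vehicle and 574 to 1597 CPM in TGFBRi rats. Of 14 luminal genes 1 was lower (KRT7), with summed markers of 271.7 to 1512 CPM in vehicle and 117 to 1381 CPM in TGFBRi rats. Of 15 fibroblast genes 1 was higher (CCDC80), with sums of 1221 to 2002 and 1396 to 3839 CPM. Schwann cell genes were called at 44.4%, against 17.8% of all genes, with 3 of 9 lower, MBP and S100B among them, and 1 higher, NCAM1. Their summed level was 81.1, 68.1 and 269 CPM in vehicle rats and 79.6 to 138 CPM in TGFBRi rats. Without vehicle rat 4 the list's median turned to 0.88, with 1 gene lower and 2 higher of 8 tested. Adipocyte markers, of which none of 4 was called, summed to 1403 to 2067 CPM in vehicle and 2073 to 6190 CPM in TGFBRi rats, nearly all of it FABP4 (edgeR adjusted p = 0.138). This sum was highest in TGFBRi rat 14, as was that of the endothelial markers, and the cell source of FABP4 was not tested. MYLPF, a skeletal muscle gene, was called lower at no more than 3.59 CPM. In fits that left out 1 rat CD74 lost its call in 7 of 9, HIGD1B in 6, MBP in 5, CCDC80 in 4, MYLPF in 3, with 1 more where it was not tested, and KRT7, LAPTM5 and ANPEP in 1 each.

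Whether the TGFBRi effect in VSMC differed from that in other cells was tested as an interaction of cell type and treatment within rats, again by edgeR. Against RGS5 pericytes 44 of 12634 genes differed (0.348%), against 10853 fibroblasts 236 of 15522 (1.52%) and against myoepithelial cells 602 of 14997 (4.01%). Against the planned, wider pericyte selection of 3159 cells with vascular UMIs and no contractile UMI, which took in luminal and endothelial cells, 432 of 14498 differed (2.98%). The RGS5 pericytes numbered 26 to 376 per rat and the VSMC 43 to 400. Median UMIs per cell ran from 2142 to 3472 in RGS5 pericytes and from 4629 to 8471 in VSMC. Within RGS5 pericytes alone 862 genes were called after TGFBRi, within fibroblasts 4832 and within myoepithelial cells 6147. The part of cell number and depth in the interaction counts was not tested. All comparisons share the VSMC of the same rats. Without vehicle rat 2 the counts were 73 for fibroblasts, 193 for myoepithelial cells and 160 for the wider pericyte selection. Without vehicle rat 1 they were 115, 303 and 456, and without vehicle rat 4 they were 169, 407 and 87.

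ACTA2 changed by a log2 fold change of 0.89 in VSMC, 0.96 in RGS5 pericytes and 0.90 in myoepithelial cells. The difference from myoepithelial cells was 0.09 ± 0.24 (approximate 95% interval -0.38 to 0.56). For NQO1 the effects were -2.80 in VSMC, -2.78 in pericytes and -2.54 in fibroblasts, and the difference from pericytes had an interval of -0.49 to 0.48. In myoepithelial cells NQO1 had -3.47 and HMOX1 -2.64, and the differences from VSMC, with intervals of 0.15 to 1.51 and -0.83 to -0.01, did not pass the adjusted test by edgeR. For HMOX1 the effect in fibroblasts was -2.96 and the interval of the difference -0.66 to 0.14, and for DBP 2.83 in fibroblasts and -1.08 to 0.33. In fibroblasts ACTA2 did not pass (0.03), and the difference from VSMC (1.00 ± 0.43) did not pass either (edgeR adjusted p = 0.463).

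The guanylate cyclase subunits did differ from fibroblasts. GUCY1B1 rose by a log2 fold change of 0.69 in VSMC and had -0.34 in fibroblasts, a difference of 1.06 ± 0.21 (edgeR adjusted p = 0.00977). GUCY1A1 differed by 0.97 ± 0.22 (edgeR adjusted p = 0.0247). TIMP3 (0.95 ± 0.17), TGFB3 (1.01 ± 0.25), VCL (0.72 ± 0.17) and COL8A1 (2.46 ± 0.40) also had more positive effects in VSMC than in fibroblasts. TGFB3 did not pass as a difference from myoepithelial cells, where its effect was 1.83, or from pericytes (1.63).

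Several named genes differed from myoepithelial cells in their response. PMEPA1 was lower in VSMC (log2 fold change -0.71) and higher in myoepithelial cells (0.85), a difference of -1.39 ± 0.26 (edgeR adjusted p = 0.00481). SMAD7 differed by -1.58 ± 0.39, EDNRA by -1.65 ± 0.33 and MYL9 by -0.66 ± 0.20, with MYL9 rising by 0.82 in myoepithelial cells. F3 fell by 1.74 in VSMC and had 0.73 in myoepithelial cells, and HOPX rose by 1.11 in VSMC and had -0.01 there. MYOCD differed by 3.05 ± 0.80 (edgeR adjusted p = 0.0420), but MYOCD had only 13 UMIs in the myoepithelial cells of all 9 rats.

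Between VSMC and RGS5 pericytes, 4 of the genes named here differed. GJA4 fell in VSMC and had 0.21 in pericytes, a difference of -1.18 ± 0.20 (edgeR adjusted p = 1.43e-05). ID3 differed by -0.78 ± 0.15, with -0.72 in VSMC and 0.09 in pericytes. FOSB rose in both, by 0.70 and 1.60, and differed by -0.88 ± 0.18, and EGR1 differed by -0.82 ± 0.19.

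**Figure D5:**
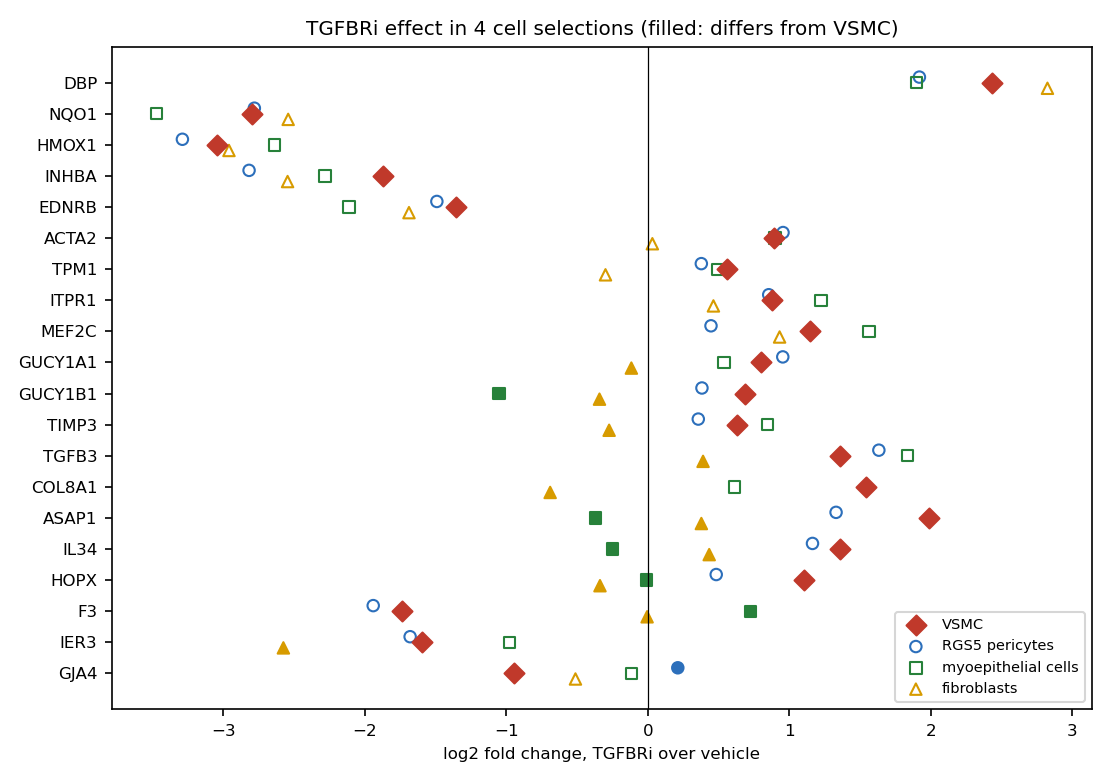
Log2 fold change of TGFBRi over vehicle for 20 genes in VSMC (red diamonds), RGS5 pericytes (circles), myoepithelial cells (squares) and fibroblasts (triangles). Filled symbols differ from VSMC at an interaction adjusted p of 0.1 or less. Symbols of HMOX1, INHBA and EDNRB are open in all types, GUCY1B1 is filled in myoepithelial cells (difference 1.85) and fibroblasts (1.06), and GJA4 in RGS5 pericytes (-1.18). HOPX and F3 were chosen after their values were seen.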

How the data were processed

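Whole mammary glands of 9 SD rats were profiled by droplet single-cell RNA sequencing (10x 5' chemistry). The deposited tables hold UMI counts per gene and cell, which the authors made with Cell Ranger 7.0.0 on the rat build rn6 without introns and filtered in Seurat 4.1.1. They hold 18237 genes and 103524 cells. Their other 232 files in the series were not used here.

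Symbols were matched ignoring case. VSMC were chosen by the UMI rule given above, and counts were summed per rat. The members and gene lists were chosen with earlier results of these data known. Genes with at least 10 UMIs in all were tested in edgeR 4.0.16 (R 4.3.3) by the quasi-likelihood test with TMM scaling and Benjamini-Hochberg adjustment over all genes, at 0.1. Interactions carried the rat as a term. Shares and depth were compared by two-sided exact permutation over rats. Wilson intervals cover counting error only. DESeq2 1.42.0 was an alternative. Named genes were up to 12 per direction with the largest change, non-overlapping groups and a mean of at least 20 UMIs per rat in the higher group, all called list members, further list members chosen by role, and the genes that set VSMC most apart from other cells; HOPX and F3 were added after their values were seen. Some list members are not reported here. Doublets were not called, and leaving out the tenth of VSMC with most UMIs was an alternative. The planned definition of pericytes took in luminal and endothelial cells, so a narrower one based on RGS5 was added after the data were seen. The test was tried on simulated counts of 11885 genes for the VSMC comparison, with changes planted only in genes with a mean of at least 20 UMIs per rat. It recovered 68% of 100 such genes changed by a log2 of 1 and 100% of those changed by 2, with 24 false calls. Recovery of genes with fewer UMIs was not tested.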

Additional observations from a re-analysis of the deposited data

Results flagged for a closer look

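In the 6 TGFBRi rats, 1 rat stood apart from the other 5 by Dixon's criterion for 8 of 123 named genes. These were AKR1B8 (102.1 CPM) and PLN (36.64 CPM), PDE3A (104.7 CPM) and LIF (39.25 CPM) in rat 1, PDLIM7 (267.3 CPM) and GUCY1A1 (216.3 CPM) in rat 2, and PGR (1.08 CPM) and MYLPF (0.5399 CPM) in rat 6. Chance flags about 1 in 20 groups, which is near this share. Rats 1 and 2 had the fewest VSMC, 45 and 43.

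The log2 effect of TGFBRi differed between VSMC and myoepithelial cells by the edgeR interaction test for 22 of 123 named genes, against 4.01% of all genes tested. The named genes were largely chosen for their change in VSMC, so nothing is read from that share. It was more positive in VSMC for FLI1 (2.00), RT1-T24-4 (1.10), ASAP1 (2.33), AKR1B8 (2.89), ATP2A2 (0.62), GUCY1B1 (1.85), MYOCD (3.05), MRTFA (1.13), TGFBR2 (0.79), IL34 (1.74) and HOPX (1.24). It was more negative for SLC7A11 (-1.05), GPR183 (-2.06), MYL9 (-0.66), EDNRA (-1.65), SMAD7 (-1.58), PMEPA1 (-1.39), NR4A3 (-1.18), CX3CL1 (-2.20), PGR (-3.56), S100B (-2.69) and F3 (-2.31).

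Against fibroblasts 20 of 123 named genes differed, against 1.52% of all genes tested, and the same limit holds. The difference was positive for RT1-T24-4 (1.14), ASAP1 (1.42), MYBPC1 (1.78), TCF7L1 (0.75), VCL (0.72), CRYAB (0.78), PLN (1.55), GUCY1A1 (0.97), GUCY1B1 (1.06), TGFB3 (1.01), TIMP3 (0.95), COL8A1 (2.46), IER3 (0.94), IL34 (0.97), PDGFC (1.70), NCAM1 (1.01) and HOPX (1.50), and negative for KLF10 (-0.88), BTG2 (-0.88) and F3 (-1.62). PLN had 45 UMIs in all fibroblasts. Against RGS5 pericytes, where 0.348% of all genes differed, 4 of the 123 did so, namely ID3 (-0.78), FOSB (-0.88), EGR1 (-0.82) and GJA4 (-1.18).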

How the results depend on the processing

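Without vehicle rat 2, 67 of the named genes called in VSMC kept their call and 36 lost it, the most of the fits that left out 1 rat. Under the stricter choice of cells 54 kept it and 49 lost it. With the added endothelial exclusion 1896 of 11702 genes were called, and of the named genes 87 kept their call and 16 lost it. Of these genes together, 55 were called in every fit that left out 1 rat and 33 in each of the 12 other settings. The number of genes called ran from 1253 to 2168 over fits without 1 rat, and was 1049 under the stricter choice of cells and 1064 with sums thinned to the smallest rat, where there are fewer cells or UMIs. The rats numbered 1, 2 and 4 in both groups are different animals whose deviations did not pair (r of -0.0414, -0.0156 and 0.0317 over 5538 genes), and a fit of those 6 rats called 845 genes with the replicate number as a block and 734 without it. The TGFBRi minus vehicle difference in VSMC share ran from -1.09 to 0.308 percentage points without 1 rat and was 1.03 as a share of cells that met the RGS5, PDGFRB and NOTCH3 minimum, so its direction turned. The difference in UMIs per VSMC ran from 1043 to 1718 without 1 rat and was 581 under the stricter choice of cells (exact permutation p = 0.595), against 1407 (p = 0.0714).

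Interaction counts without 1 rat ran from 193 to 878 against myoepithelial cells, from 73 to 270 against fibroblasts and from 87 to 624 against the planned pericytes, where 432 genes differed, compared with 44 against RGS5 pericytes. Counts of fits without 1 rat are not reported here for RGS5 pericytes. Of named genes, these turned in sign, and the cause was not tested: BCL2A1 (0.38) and LAPTM5 (0.89) without cells holding UMIs of other types, MRTFA (-0.47) with thinned sums and CD74 (0.26) under the stricter choice. TGFB1, near 0, ran from -0.17 to 0.23 without 1 rat, and was 0.15 under the stricter and 0.0815 under the looser choice, 0.0724 without the tenth of cells with most UMIs, 0.35 without cells holding UMIs of other types, 0.24 with thinned sums and 0.0625 without the 2 smallest libraries.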
